A study of Homo sapiens with 6 samples.

Results

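The MYC, MAX and MXD network is a set of transcription factors that share a basic helix-loop-helix leucine zipper. Its members here are 10 genes taken by symbol from the deposited count table: MYC, MAX, MXI1, MXD1, MXD3, MXD4, MNT, MLX, MLXIP and MGA. They are 10 of 19672 listed genes, and all 10 were among the 13299 genes with enough counts to be tested. The cells were SW620, an established human colorectal cancer line of epithelial origin, grown without further treatment. Each culture stably carried a lentiviral short hairpin RNA (shRNA) under puromycin selection, in the control a scrambled non-targeting hairpin and in the lines called C3 and C6 a hairpin against DKC1. Dyskerin, its product, isomerises uridine to pseudouridine in ribosomal and small nuclear RNA as part of H/ACA particles. Each of the 3 groups had 2 libraries of poly(A) RNA. The study describes a pair of distinct DKC1 hairpins. Which of them each line carried, and whether a line was 1 clone or a pool, are details not given in the sources used here. By its genotype tag C3 replicate 1 is a control, and its title was followed in placing it in C3.

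MYC binds DNA only as a dimer with MAX, at the E-box motif CACGTG and its variants, and recruits acetyltransferases and elongation factors that raise transcription of genes for ribosome assembly, nucleotide synthesis and glycolysis. MXD1, MXI1, MXD3, MXD4 and MNT compete for the same partner and bring the SIN3 histone deacetylase corepressor to the same sites. MLXIP, also called MondoA, pairs with MLX and answers to glucose phosphates, and MGA holds MAX in a Polycomb complex named PRC1.6. In the colon MYC is a classical target of WNT signalling through TCF factors.

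Promoter windows that hold CACGTG are shown first, because this is the site that all these dimers share. RefSeq promoter windows (GRCh38.p14, 250 bases before to 50 after a start) were found for 9 members, in 14 windows, and CACGTG stood in 3 of the windows, those of MXD4, MNT and MLX. The same letters, which read alike on both strands, occurred in 7.26% of 35116 promoter windows of this length. The MXD4 window is chr4:2262060-2262359 on the minus strand, with the motif at -238 from the start. The MNT window is chr17:2401011-2401310 on the minus strand, with the motif at -193. The MLX window is chr17:42566850-42567149 on the plus strand, with the motif at -50. Shown beside them is that of TXNIP, the standard reporter of MLXIP and MLX activity, at chr1:145996530-145996829 on the minus strand. It holds CACGAG at -88 and at -77. CACGAG was searched on both strands as a part of the carbohydrate response element, and it occurred in 6.78% of windows. Capitals mark CACGTG in the windows of members and CACGAG in TXNIP, each read 5′ to 3′ on the strand of the gene.
MXD4: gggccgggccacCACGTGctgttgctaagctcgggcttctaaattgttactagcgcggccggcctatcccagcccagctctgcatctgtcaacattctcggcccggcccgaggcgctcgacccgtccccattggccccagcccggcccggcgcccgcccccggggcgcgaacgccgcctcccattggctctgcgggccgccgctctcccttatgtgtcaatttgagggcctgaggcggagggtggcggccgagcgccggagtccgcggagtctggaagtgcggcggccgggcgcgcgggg
MNT: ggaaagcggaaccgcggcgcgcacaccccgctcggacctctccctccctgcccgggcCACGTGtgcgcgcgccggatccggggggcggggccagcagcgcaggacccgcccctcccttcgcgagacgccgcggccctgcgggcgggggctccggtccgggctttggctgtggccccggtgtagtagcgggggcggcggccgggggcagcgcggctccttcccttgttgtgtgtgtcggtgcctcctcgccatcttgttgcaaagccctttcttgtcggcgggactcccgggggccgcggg
MLX: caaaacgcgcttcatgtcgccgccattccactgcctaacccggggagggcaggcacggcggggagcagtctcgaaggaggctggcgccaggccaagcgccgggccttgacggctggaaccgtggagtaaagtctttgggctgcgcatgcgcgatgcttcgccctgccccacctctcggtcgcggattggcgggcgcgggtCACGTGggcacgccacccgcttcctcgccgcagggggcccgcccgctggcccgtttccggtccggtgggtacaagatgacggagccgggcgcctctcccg
TXNIP: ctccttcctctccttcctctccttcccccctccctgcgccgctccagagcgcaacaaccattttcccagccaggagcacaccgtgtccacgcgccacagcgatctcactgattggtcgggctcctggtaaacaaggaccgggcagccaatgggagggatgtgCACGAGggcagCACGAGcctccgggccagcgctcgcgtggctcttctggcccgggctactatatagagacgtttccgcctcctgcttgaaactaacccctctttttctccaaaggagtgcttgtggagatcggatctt
The motifs do not overlap each other, and a match describes letters only, since binding was not measured. The variant CACGCG, searched on both strands, stood in windows of 3 members (MXI1, MXD3 and MGA) and in 11.4% of all windows.

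DKC1 itself gave 320 and 315 CPM in scramble, 144 and 149 CPM in C3, and 70.3 and 67.1 CPM in C6, where CPM are counts scaled to TMM-normalised library sizes. The 3 pairs did not overlap, and DKC1 stood at 46.4% of its scramble mean in C3 and at 21.7% in C6. Total counts lay between 26077966 and 31021000 a library, so that 3 counts equal 0.0967 to 0.115 CPM, a floor for counting error only. Of 12 colorectal epithelial markers 11 were tested, led by KRT8 with a scramble mean of 4590 CPM, while CDX1 was at 0 in all 6 libraries. Their summed level was 8501 and 9146 CPM in scramble, 6896 and 7092 CPM in C3, and 8967 and 9075 CPM in C6. The sum, led by keratins, hides moves of single genes. In scramble, C3 and C6 CDH1 had means of 225, 58.1 and 183 CPM, and VIL1 292, 370 and 138 CPM. KRT19, named after its values were seen, had 1150, 957 and 1949 CPM. Of the 11 genes, 9 had negative log2 fold changes in C3 and 7 in C6. The defining markers PTPRC and CD3E of leukocytes, CDH5 of endothelium, and COL1A2, COL3A1 and DCN of fibroblasts were at 0 in all 6 libraries. The tested members of those lists (2 of 6 leukocyte, 2 of 4 endothelial and 4 of 7 fibroblast genes) summed to between 3.24 and 42.4 CPM a library. The leukocyte sum was 18.3 and 19.1 CPM in scramble, 12.3 and 12.8 CPM in C3, and 35.0 and 42.4 CPM in C6. Most of it was CD68, with means of 16, 10.7 and 36.5 CPM in scramble, C3 and C6. LYZ, the other tested gene of that list, had means of 2.68, 1.91 and 2.19 CPM. The fibroblast sum ran from 18.7 in C6 to 35.1 CPM in C3. Within the fibroblast list THY1 went from a mean of 0.297 CPM in scramble to 3.59 CPM in C6, while the other 3 tested genes were lower there. The part of these marker levels in the results below was not tested. The titles speak of biological replicates but not of separate cultures, so p-values measure the spread between these libraries. All libraries carry the same batch date, and no batch could be compared. In RNA from a whole culture, fewer cells with a transcript and less of it per cell cannot be told apart.

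Per kilobase of transcript, MYC was by far the most abundant member. In scramble it stood at 362 ± 2.39 CPM per kb (mean ± SD of 2 libraries, as everywhere below), against 120 ± 2.03 for MAX, its obligate partner. MLX followed at 26.9 ± 1.17, MLXIP at 11.1 ± 0.645, MXD1 at 9.58 ± 0.154, MNT at 7.55 ± 1.14, MXD4 at 6.35 ± 0.268, MXI1 at 6.21 ± 0.379, MGA at 6.10 ± 0.604 and MXD3 at 2.64 ± 0.332 CPM per kb. Neighbours in this order had separate scramble libraries except MXD4, MXI1 and MGA, whose ranges overlapped. Lengths are medians over the matched GENCODE v29 transcripts of each gene, and the order rests on these lengths as well as on the libraries. MLXIP and MNT had 1 matched transcript for 9 and 6 RefSeq IDs, and MGA had 2 for 26. At its shortest and longest lengths MXI1 would lie at 6.88 and 4.34 CPM per kb. The MAX level is the least certain, because its transcripts run from 330 to 2141 bases and the scramble value would lie between 327 and 50.4 CPM per kb at those lengths. Even at the shortest length it stayed below MYC.

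**Figure D1:**
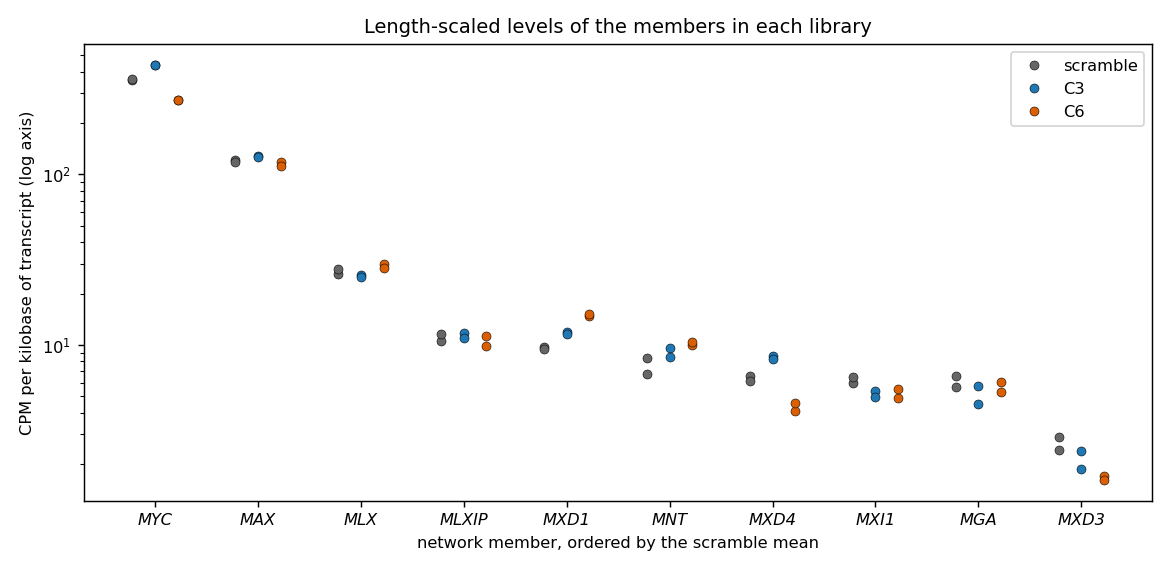
CPM per kilobase of transcript (log axis) of the 10 members, ordered by the scramble mean, with each point a library coloured by group. MYC lies between 272 and 440 in every library and MXD3 between 1.61 and 2.87.

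The order changed among the repressors of the network. In C3 the MXD1 libraries (11.9 and 11.5 CPM per kb) overlapped those of MLXIP (11.7 and 11), and in C6 MXD1 stood at 14.8 and 15.1 against 9.79 and 11.3 for MLXIP. MXD4 moved from 6.54 and 6.16 CPM per kb in scramble to 8.55 and 8.27 in C3, beside MNT at 9.63 and 8.54. In C6 MXD4 was at 4.11 and 4.58 CPM per kb, below both libraries of MXI1 (4.87 and 5.53) and MGA (5.28 and 6.07). The level of MYC was also set against the sum of its 5 antagonists MXD1, MXI1, MXD3, MXD4 and MNT on the same per-length scale. In scramble this ratio came to 11.3 and 11.1, in the C3 libraries to 11.6 and 12.5, and in those of C6 to 7.66 and 7.36. Both C6 libraries were thus lower than all others, with group means of 11.2 ± 0.192, 12.0 ± 0.678 and 7.51 ± 0.213, and the ratio is a description of RNA levels with no test.

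MYC, the activating factor at the centre of the network, was changed in opposite directions in the lines. It was measured at 852 and 860 CPM in scramble, 1033 and 1042 CPM in C3, and 643 and 648 CPM in C6. Both C3 libraries were above and both C6 libraries below the scramble pair. The log2 fold change against scramble was 0.28 ± 0.055 (SE) in C3 (edgeR quasi-likelihood test, Benjamini-Hochberg adjusted p = 0.00162) and -0.41 ± 0.055 in C6 (edgeR, adjusted p = 2.31e-05). These are levels at 121% and 75.4% of scramble. C6 set directly against C3 gave -0.68 ± 0.055 (edgeR, adjusted p = 8.7e-08), and MYC kept its call in all 3 comparisons under each of the 15 alternative settings. The mean of both lines, in which the directions cancel, differed from scramble by -0.07 ± 0.047 (edgeR, adjusted p = 0.316). MYC lies at chromosome 8, 127735434 to 127742951 (GRCh38.p14).

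**Figure D2:**
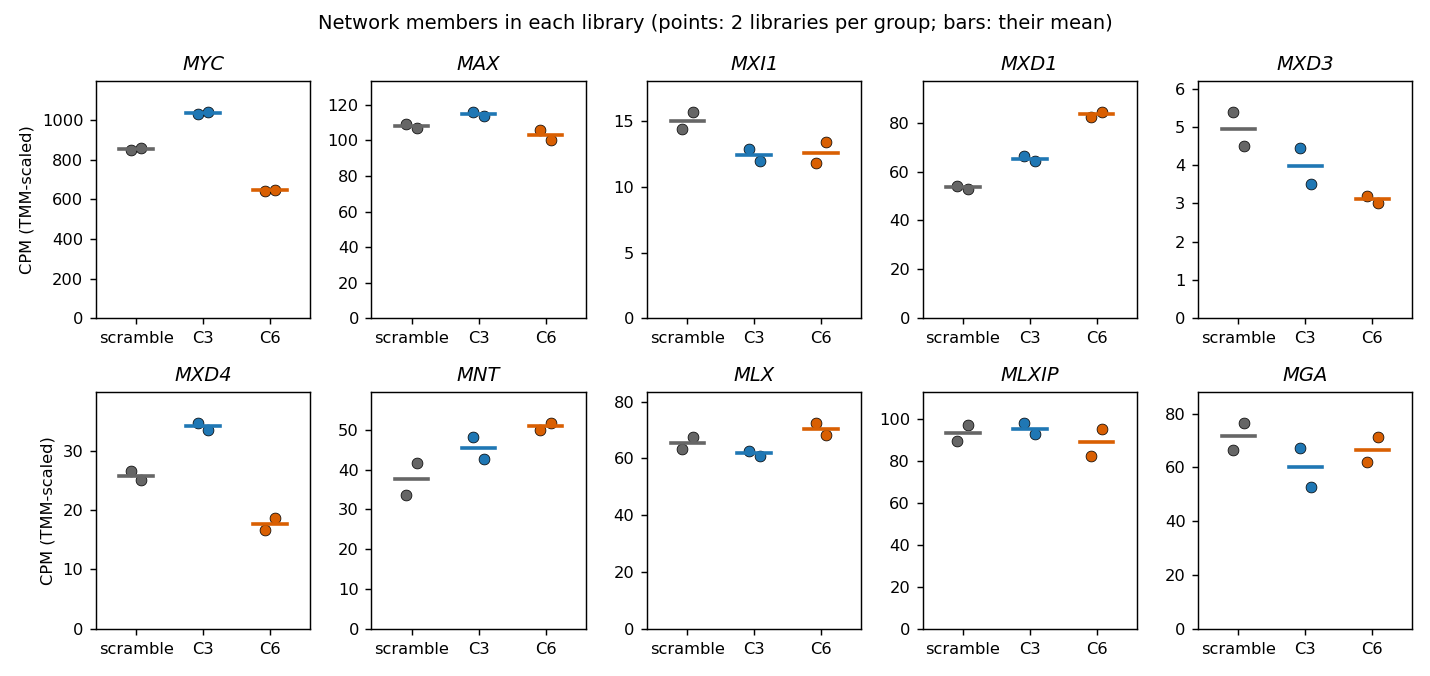
CPM of each member in every library, with points for the 2 libraries of each group and bars for their mean, each panel starting at 0. MYC and MXD4 are highest in C3 and lowest in C6, and MXD1 rises from scramble through C3 to C6.

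Across the network 3 members rose and 0 fell in C3, where 24.3% of all tested genes were called (12.4% higher and 11.9% lower). The 3 were MYC, MXD1 and MXD4. At an unadjusted p under 0.05 edgeR gave 1 member lower in C3, and DESeq2 and limma-voom called 0. In C6, 2 members rose (MXD1 and MNT) and 3 fell (MYC, MXD3 and MXD4), against 46.7% of tested genes called (23.8% higher and 22.8% lower). The member median was 0.06 in C3 and -0.09 in C6 on the log2 scale, beside 0.0013 and -0.01 over all genes tested. Both C3 libraries lay outside the scramble pair for 8 of 10 members, where 62.9% of all genes did so, and the same count in C6 was 8 beside 72.9%. Neither share of called members stood far from that of all genes. MYC and MXD4 were called higher in C3 and lower in C6, as were 2.31% of all genes (4.93% had opposite signs either way), and MXD1 was called higher in both lines, as were 5.44% of genes.

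**Figure D3:**
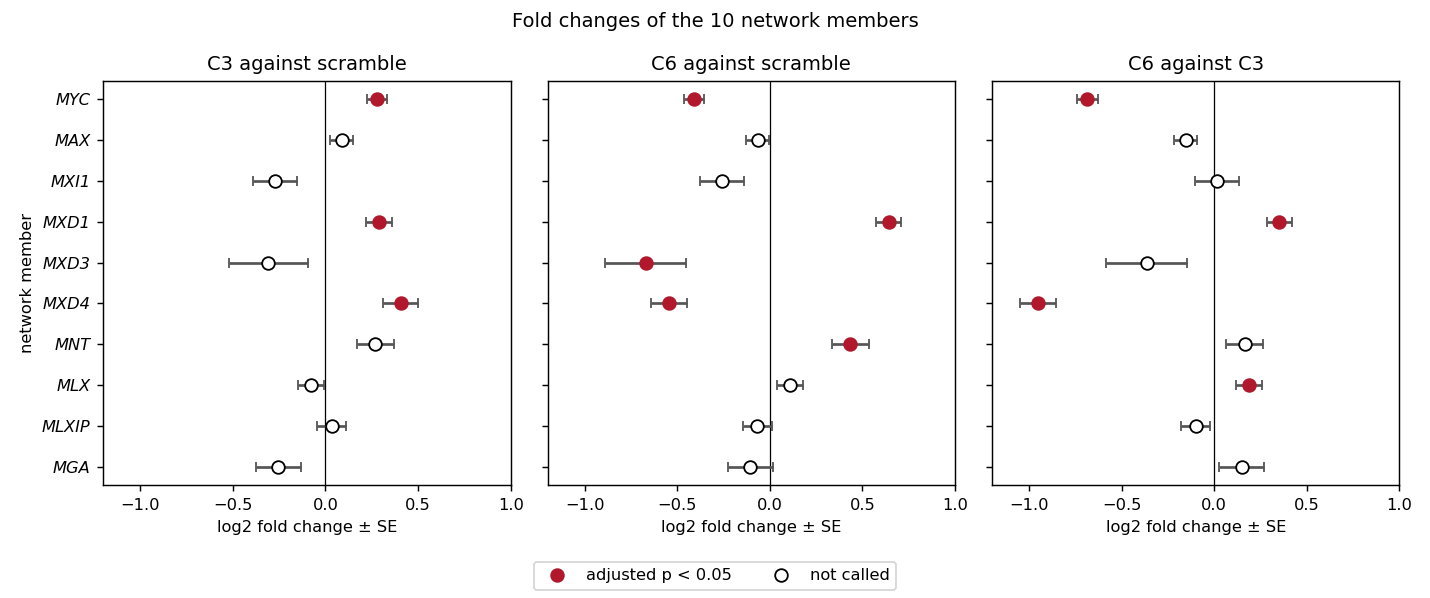
Log2 fold change ± SE of each member in C3 against scramble, C6 against scramble and C6 against C3, with filled points for an adjusted p under 0.05. MYC and MXD4 cross from the positive to the negative side between the first and second panels, and MXD1 is positive in all 3.

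MAX, the shared partner of MYC, the MXD proteins, MNT and MGA, differed little between the groups. It was measured at 109 and 107 CPM in scramble, 116 and 114 CPM in C3, and 106 and 100 CPM in C6. The groups did not overlap, C3 being high and C6 low as for MYC, but the differences were small. They came to 0.09 ± 0.063 in C3 (edgeR, adjusted p = 0.351) and -0.07 ± 0.063 in C6 (edgeR, adjusted p = 0.417). C6 against C3 gave -0.15 ± 0.063 (edgeR, adjusted p = 0.0556), just outside the threshold. MAX (chromosome 14, 65006101 to 65102695) overlaps FNTB and CHURC1-FNTB in RefSeq, with 3030 and 195 counts over all libraries beside 18160 for MAX. How shared reads were assigned was not given in the sources used here.

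MXD1 was the MXD repressor called higher in both lines. MXD1, first described as a partner of MAX that is induced as cells differentiate, was at 54.1 and 52.9 CPM in scramble, 66.2 and 64.5 CPM in C3, and 82.4 and 84.4 CPM in C6. All 3 pairs were separate, with C6 the highest. The rise was 0.29 ± 0.069 in C3 (edgeR, adjusted p = 0.00584) and 0.64 ± 0.068 in C6 (edgeR, adjusted p = 2.2e-06), or 122% and 156% of scramble. C6 exceeded C3 by 0.35 ± 0.067 (edgeR, adjusted p = 0.000499). The call in C3 was lost without scramble replicate 2 and without C3 replicate 1, where the highest adjusted p by edgeR was 0.0599. MXD1 (chromosome 2, 69915109 to 69942945) overlaps ASPRV1, which had 1265 counts in all beside 11258.

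MXD4 rose in C3 and fell in C6, as did MYC. It was at 26.5 and 25.0 CPM in scramble, 34.7 and 33.5 CPM in C3, and 16.7 and 18.6 CPM in C6. The pairs were separate, with C3 highest and C6 lowest. The log2 fold change was 0.41 ± 0.093 in C3 (edgeR, adjusted p = 0.00456) and -0.55 ± 0.097 in C6 (edgeR, adjusted p = 0.000304), and C6 against C3 gave -0.95 ± 0.096 (edgeR, adjusted p = 9.35e-07). MXD4 lies near the end of chromosome 4 (2247432 to 2262109), and its neighbours moved with it in C6. The median of up to 51 genes around and including it was -0.76 in C6 and -0.03 in C3. With that neighbourhood shift taken out, C6 against scramble became 0.22 (edgeR, adjusted p = 0.0902) and C6 against C3 became -0.22 (edgeR, adjusted p = 0.069). The rise in C3 was still called then, and the mean of both lines became 0.33 (edgeR, adjusted p = 0.00829) in place of -0.07 (edgeR, adjusted p = 0.551). Without scramble replicate 2 the rise in C3 was not called (edgeR, adjusted p = 0.0543).

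**Figure D4:**
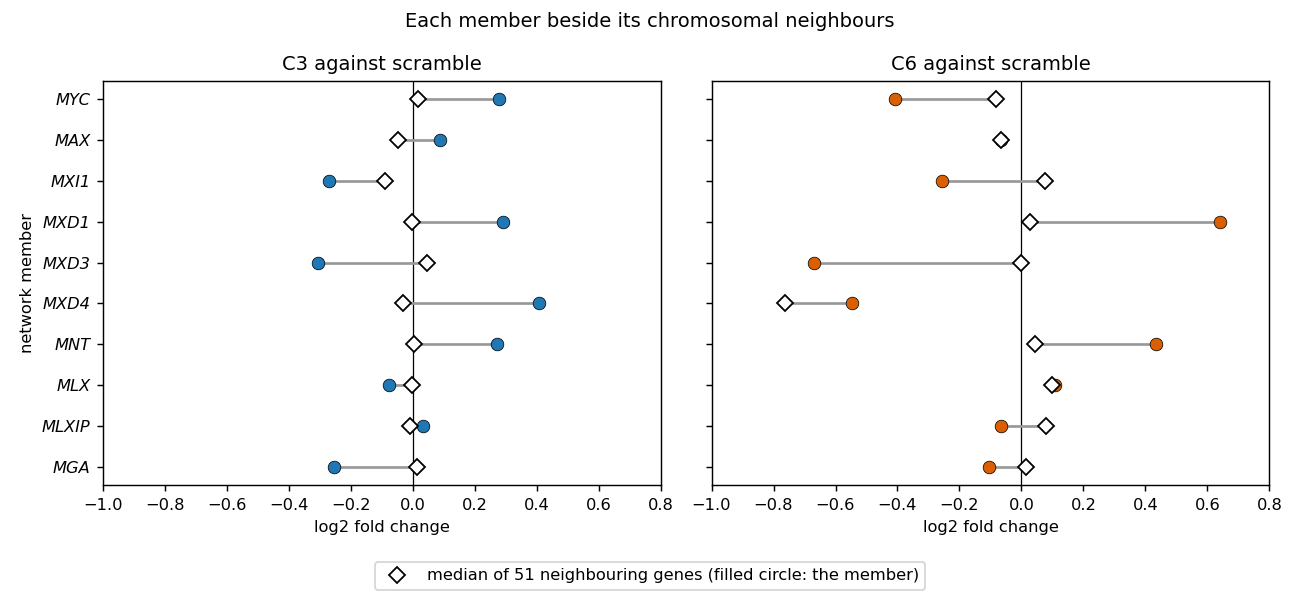
Log2 fold change of each member (filled circles) for C3 and C6 against scramble. Open diamonds are the running median of up to 51 genes around and including the member on the chromosome. The diamond of MXD4 in C6 is at -0.76, beyond the gene itself at -0.55, and all other diamonds lie between -0.09 and 0.10.

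MXI1 and MXD3 lay below scramble in both lines, and the fall of MXD3 in C6 passed the test. MXI1 was at 14.4 and 15.7 CPM in scramble, 12.9 and 12.0 CPM in C3, and 11.8 and 13.4 CPM in C6, so that all 4 knockdown libraries lay below both controls. The differences of -0.27 ± 0.118 in C3 (edgeR, adjusted p = 0.112) and -0.26 ± 0.119 in C6 (edgeR, adjusted p = 0.0917) did not pass, nor did their mean of -0.26 ± 0.102 (edgeR, adjusted p = 0.0595). C6 and C3 overlapped each other for MXI1. In C6 it was called lower under upper-quartile scaling and with the neighbourhood shift removed, the lowest adjusted p by edgeR being 0.0373. MXD3, the member linked to proliferating cells in S phase, was the least abundant at 5.39 and 4.51 CPM in scramble, 4.45 and 3.52 CPM in C3, and 3.19 and 3.02 CPM in C6. Both C6 libraries were below all others, and MXD3 fell by 0.67 on the log2 scale in C6 (SE 0.217, edgeR, adjusted p = 0.0193), while C3 gave -0.31 ± 0.211 (edgeR, adjusted p = 0.323). The fall was lost in 4 alternatives: DESeq2 and the fits without scramble replicate 1, C6 replicate 1 or C6 replicate 2. MXD3 (chromosome 5, 177305499 to 177312752) had 671 counts in all and overlaps PRELID1 with 30303, so its values are uncertain. MXI1 lies at chromosome 10, 110207605 to 110287365.

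MNT, the antagonist that most cell types keep expressed, rose in C6, with a wide control pair. Its levels were 33.7 and 41.7 CPM in scramble, 48.1 and 42.7 CPM in C3, and 50 and 51.8 CPM in C6. No knockdown library fell within the scramble pair, but C3 replicate 2 was close to scramble replicate 2. MNT rose by 0.43 ± 0.099 in C6 (edgeR, adjusted p = 0.0024), and C3 gave 0.27 ± 0.099 (edgeR, adjusted p = 0.0628). The C3 value ran from 0.123 to 0.434 when 1 library was left out, and it was called without scramble replicate 2 (edgeR, adjusted p = 0.0176) and with no filter on low counts (edgeR, adjusted p = 0.0445). The mean of both lines was called at 0.35 ± 0.087 (edgeR, adjusted p = 0.00642), where 32.9% of tested genes were called (50.5% of the calls higher, 37.2% under upper-quartile scaling) and MXD1 was the other member, at 0.46 ± 0.06 (edgeR, adjusted p = 3.1e-05). Leaving out scramble replicate 1 took the mean for MNT to 0.21 and its call away, and the call was also lost with the knockdown libraries as 1 group (edgeR, adjusted p = 0.285). MNT lies at chromosome 17, 2384073 to 2401060.

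MLX and MLXIP, the glucose-sensing pair, were not called against scramble. MLX was at 63.3 and 67.4 CPM in scramble, 62.7 and 61.0 CPM in C3, and 72.6 and 68.4 CPM in C6. C3 was the lowest pair and C6 the highest, with -0.08 ± 0.071 in C3 (edgeR, adjusted p = 0.467) and 0.11 ± 0.071 in C6 (edgeR, adjusted p = 0.228). C6 exceeded C3 by 0.19 ± 0.071 (edgeR, adjusted p = 0.0396), a call that 7 of 15 alternatives lost. MLXIP was at 89.4 and 97.1 CPM in scramble, 98.2 and 92.6 CPM in C3, and 82.5 and 95.4 CPM in C6, and the groups overlapped. Its differences were 0.03 ± 0.078 in C3 (edgeR, adjusted p = 0.804) and -0.07 ± 0.078 in C6 (edgeR, adjusted p = 0.509), and the sign in C3 turned under upper-quartile scaling and without scramble or C3 replicate 1. MLX (chromosome 17, 42567100 to 42573203) overlaps PSMC3IP, with 2439 counts beside 10984, and MLXIP lies at chromosome 12, 122078756 to 122147344.

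MGA, the scaffold of PRC1.6, varied widely between replicates. It was at 66.6 and 76.6 CPM in scramble, 67.2 and 52.7 CPM in C3, and 61.9 and 71.1 CPM in C6, and the groups overlapped. The values were -0.26 ± 0.121 in C3 (edgeR, adjusted p = 0.164) and -0.11 ± 0.121 in C6 (edgeR, adjusted p = 0.507). Without C3 replicate 1 the difference in C3 was -0.44 and was called (edgeR, adjusted p = 0.0106). MGA lies at chromosome 15, 41621224 to 41769940.

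Between the lines, 4 members differed: MXD1 and MLX were higher and MYC and MXD4 lower in C6 than in C3. Over all genes tested 49.2% were called in this comparison (25.1% higher and 24.1% lower). Both C6 libraries lay outside the C3 pair for 7 of 10 members, beside 74.1% of all genes. The member median was -0.04 and that of all genes 0.0018. C6 had less DKC1 than C3, and whether the amount of DKC1, the hairpin or the line goes with these differences cannot be told apart.

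The 3 relatives of the members outside the list were followed as well. MYCL, the MYC paralog first found in lung cancer, fell in both lines. It was at 6.91 and 6.48 CPM in scramble, 2.03 and 1.35 CPM in C3, and 2.66 and 2.59 CPM in C6, with both lines below scramble. The change was -1.97 ± 0.241 in C3 (edgeR, adjusted p = 2.39e-05) and -1.35 ± 0.231 in C6 (edgeR, adjusted p = 0.000218). MLXIPL, or ChREBP, the paralog of MLXIP in lipid-making tissues, moved in opposite directions, from 11.9 and 10.6 CPM in scramble to 6.71 and 7.76 CPM in C3 and 16.1 and 17.3 CPM in C6. It fell by 0.64 on the log2 scale in C3 (edgeR, adjusted p = 0.00222) and rose by 0.57 in C6 (edgeR, adjusted p = 0.00163). The median of up to 51 genes around and including MLXIPL was 0.47 in C6. Without that shift MLXIPL was at 0.10 in C6 and not called (edgeR, adjusted p = 0.556). MYCN gave 11 and 7 counts in scramble and 5 and 12 counts in C3, while both C6 libraries had 0. Taking the 3-count floor over the C6 pair, and the few scramble counts as exact, MYCN was at least 6.04-fold lower there than in scramble. It was called lower in C6 (edgeR, adjusted p = 0.0154), a call that was lost without scramble replicate 1, C6 replicate 1 or C6 replicate 2. MYCN passed the low-count filter only through scramble and C3 libraries, so a lower level in C6 was favoured by the selection. At 3.44 CPM per kb in scramble MYCL was far below MYC.

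Genes activated by MYC, a list of 61 tested genes of ribosome assembly, nucleotide and polyamine synthesis and glycolysis, had 55 positive and 6 negative log2 fold changes in C3, and 24 and 37 in C6. In C3 19 rose and 1 fell (SLC29A2, a nucleoside transporter), 31.1% and 1.64% of the list, with a median of 0.13. In C6 6 rose and 21 fell, 9.84% and 34.4%, with a median of -0.05. Between the lines 37 were lower and 4 higher in C6 (TERT, AIMP2, PRMT3 and TBRG4), with a median of -0.22. The medians of all genes in these comparisons were 0.0013, -0.01 and 0.0018. All-gene shares called higher and lower were 12.4% and 11.9% in C3, 23.8% and 22.8% in C6, and 25.1% and 24.1% in C6 against C3. Leaving out C3 replicate 2 reduced the 19 to 10, and leaving out scramble replicate 2 reduced them to 12. SLC29A2 and the 4 genes were chosen for naming after their values were seen, as were NCL, CCND2 and LDHA in what follows.

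NPM1, HSPD1 and NCL, genes of nucleolar proteins and a chaperonin, led the list in scramble, while ENO1 led it in C6. NCL, which encodes nucleolin, was at 1875 and 1868 CPM in scramble, 2141 and 2179 CPM in C3, and 1102 and 1093 CPM in C6, so the pairs were separate in the order of MYC. It rose by 0.21 ± 0.055 in C3 (edgeR, adjusted p = 0.0115) and fell by 0.77 in C6 (edgeR, adjusted p = 3.54e-08), where its neighbours had a median of -0.32. HSPD1, the mitochondrial chaperonin, stood at 2042 and 1903 CPM in scramble, 2240 and 2375 CPM in C3, and 1514 and 1381 CPM in C6. HSPD1 rose by 0.23 in C3 and fell by 0.45 in C6, the latter equal to the median of the genes around it. That median counts HSPD1 itself, so the match cannot tell whether the other genes moved alike. In C3 the calls of both genes were lost without scramble replicate 2 or C3 replicate 2, that of NCL also without C3 replicate 1, and that of HSPD1 also under upper-quartile scaling. NPM1, the nucleolar phosphoprotein, fell by 0.35 in C6 (edgeR, adjusted p = 0.000481), where its neighbours had a median of -0.21 and removing it left -0.14 with no call, and was at 0.16 ± 0.066 in C3 (edgeR, adjusted p = 0.0944). TFRC, the transferrin receptor, went from 800 and 829 CPM in scramble to 402 in both C6 libraries, a fall of 1.02 on the log2 scale (edgeR, adjusted p = 2.46e-09), with neighbours at -0.51.

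The glycolytic genes ENO1 and LDHA were above scramble in all 4 knockdown libraries. ENO1, the enolase, was at 1500 and 1400 CPM in scramble, 1887 and 1947 CPM in C3, and 1914 and 1931 CPM in C6. Both lines lay above scramble and close to each other, with 0.40 ± 0.058 in C3 (edgeR, adjusted p = 0.000118) and 0.41 ± 0.058 in C6 (edgeR, adjusted p = 4.07e-05). LDHA, the lactate dehydrogenase subunit, rose by 0.54 ± 0.062 in C3 (edgeR, adjusted p = 1.28e-05) and was at 0.13 ± 0.062 in C6 (edgeR, adjusted p = 0.0997), which became 0.25 and was called once the neighbourhood shift of -0.12 was removed. NME1, a nucleoside diphosphate kinase, rose by 0.47 in C3 and 0.28 in C6. CCND2, a D-type cyclin, had the widest range of the list, with 3.68 and 4.62 CPM in scramble, 9.81 and 8.89 CPM in C3, and 1.10 and 1.19 CPM in C6. TERT, the telomerase catalytic subunit, rose in C6 from 2.38 and 2.05 CPM to 4.14 and 4.89 CPM, by 1.03 ± 0.25 (edgeR, adjusted p = 0.00343), with neighbours at 0.36.

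**Figure D5:**
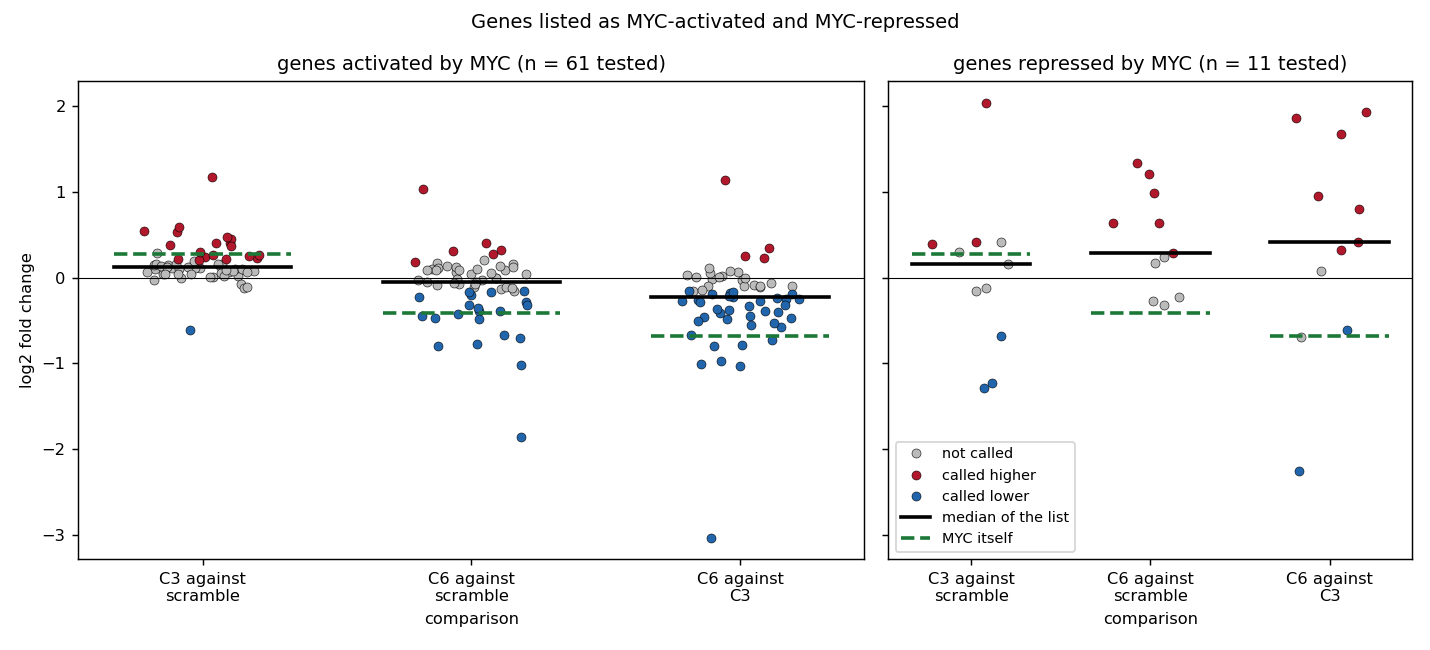
Log2 fold changes of the tested genes listed as activated (61) or repressed (11) by MYC in the 3 comparisons, with black bars for the list median and green dashes for MYC. The activated genes lie mostly above 0 in C3 against scramble (median 0.13) and mostly below 0 in C6 against C3 (median -0.22).

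Genes repressed by MYC gave 11 tested of 12, GAS1 being too low. In C6 6 rose and 0 fell by edgeR, with a median of 0.28, where 23.8% of all tested genes were called higher and 22.8% lower. At an unadjusted p under 0.05 the number lower in C6 was also 0, and DESeq2 and limma-voom called 0. GADD45A, a stress-induced growth arrest gene, was at 201 and 192 CPM in scramble, 250 and 274 CPM in C3, and 468 and 440 CPM in C6. CDKN2B, which encodes the CDK inhibitor p15, was at 77.1 and 84.5 CPM in scramble, 106 and 105 CPM in C3, and 201 and 205 CPM in C6. Both genes rose in each line, more in C6, by 0.41 and 1.21 for GADD45A and by 0.39 and 1.33 for CDKN2B.

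In C3 the repressed genes split, 3 rising (GADD45A, CDKN2B and THBS1) and 3 falling, where 12.4% of all tested genes were called higher and 11.9% lower. CDKN1A, the CDK inhibitor p21, fell by 0.68 in C3 (edgeR, adjusted p = 0.00107) and rose by 0.99 in C6 (edgeR, adjusted p = 6.22e-06). CLU and NDRG1 did the same, with CLU at -1.22 and 0.63 and NDRG1 at -1.28 and 0.64. The neighbours of CLU had a median of 0.44 in C6, and without that shift CLU was at 0.19 and not called (edgeR, adjusted p = 0.157). These 3 were chosen for naming after their values were seen. THBS1, an angiogenesis inhibitor, rose in C3, from 14.0 and 14.1 CPM in scramble to 54.0 and 61.4 CPM in C3 and 10.6 and 13.4 CPM in C6. C6 against C3 had 7 of the list higher and 2 lower, with a median of 0.41, where 25.1% of all tested genes were called higher and 24.1% lower. FTH1, the ferritin heavy chain, was the most abundant and rose by 0.28 ± 0.061 in C6 (edgeR, adjusted p = 0.00153).

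Of 5 listed targets of MLXIP and MLX, 2 rose in C3 and 3 in C6, where 12.4% and 23.8% of all tested genes were called higher. The counts were 1 in C3 without scramble replicate 2, and 2 in C6 under 10 of 15 alternatives. TXNIP, whose promoter is printed above and whose product limits glucose uptake, was at 22 and 19.1 CPM in scramble, 26.5 and 26.3 CPM in C3, and 70.8 and 73.4 CPM in C6. The pairs were separate and the C6 pair stood far above the rest. TXNIP rose by 0.36 ± 0.09 in C3 (edgeR, adjusted p = 0.00814) and by 1.81 ± 0.087 in C6 (edgeR, adjusted p = 6.64e-10), the former call being lost without scramble replicate 2 (edgeR, adjusted p = 0.104). TRIB3, a pseudokinase also induced by amino acid stress, was at 803 and 748 CPM in scramble, 828 and 902 CPM in C3, and 1073 and 1035 CPM in C6, and rose by 0.44 ± 0.063 in C6 (edgeR, adjusted p = 3.76e-05). Its neighbours there had a median of 0.33, and without that shift TRIB3 was at 0.11 and not called (edgeR, adjusted p = 0.163). KLF10 rose by 0.34 in C3. In C6 KLF10 was at 0.18 (edgeR, adjusted p = 0.0425), and the call was lost under 9 of 15 alternatives, among them DESeq2, upper-quartile scaling and the replicate block (edgeR, adjusted p = 0.0697). ARRDC4 and PFKFB3, the rest of the list and outside the naming rule, were called in neither line. The list medians were 0.20 and 0.44.

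The 11 listed WNT and TCF genes hold both parts and feedback targets of the pathway that acts on MYC. They gave 5 rises in C3 with a median of 0.34, and 3 rises and 4 falls in C6 with a median of -0.13. All-gene shares were 12.4% higher in C3 and 23.8% higher and 22.8% lower in C6. Without C6 replicate 2 the 3 rises became 1, that of AXIN2. AXIN2, the negative feedback target of the pathway, was at 102 and 109 CPM in scramble, 161 and 160 CPM in C3, and 154 and 163 CPM in C6, and rose alike in both lines (0.60 and 0.59). NKD1, another feedback inhibitor, was at 2679 and 2986 CPM in scramble, 4088 and 3761 CPM in C3, and 1624 and 1895 CPM in C6. It rose by 0.47 ± 0.079 in C3 (edgeR, adjusted p = 0.000662) and fell by 0.69 in C6 (edgeR, adjusted p = 1.07e-05). CTNNB1, which encodes beta-catenin, was at 0.01 ± 0.055 in C3 (edgeR, adjusted p = 0.936) and fell by 0.39 in C6 (edgeR, adjusted p = 3.76e-05). Its sign in C3 was negative under upper-quartile scaling and in the fit that left out scramble replicate 2. TCF7 rose by 0.48 in C3 and 0.37 in C6, the latter call being lost without scramble replicate 2 or C6 replicate 2. ZNRF3 rose by 0.39 in C3 and was at 0.21 in C6, where its call was lost under upper-quartile scaling, without scramble replicate 1 or C6 replicate 2, and with its neighbourhood shift of 0.12 removed (edgeR, adjusted p = 0.318). APC and ASCL2, named after their values were seen, fell in C6 by 0.71 and 0.64, and ASCL2 was at 0.34 in C3, a call lost by DESeq2 and without scramble replicate 2, C3 replicate 1 or C3 replicate 2.

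Of 16 cofactors of MYC, 1 was called higher and 1 lower in each line, where 24.3% of all tested genes were called in C3 and 46.7% in C6. Over the alternatives the number higher in C3 ran from 0 to 2 and the number lower from 0 to 1, and in C6 the number lower ran from 1 to 4, with 4 under upper-quartile scaling and without C6 replicate 2. CDK9, the elongation kinase, was the gene lower in C3, at -0.34 (edgeR, adjusted p = 0.0227), and lost the call by DESeq2 and without scramble replicate 2, C3 replicate 1 or C3 replicate 2. ACTL6A, a subunit shared by chromatin remodellers, rose in C6 by 0.40 ± 0.072 (edgeR, adjusted p = 0.000373). BPTF, at -0.37 ± 0.145 in C6, was not called (edgeR, adjusted p = 0.0806). Between the lines 6 of the 16 were lower and 1 higher in C6, where 24.1% of all tested genes were called lower and 25.1% higher.

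Genes that control the turnover of MYC protein gave 3 rises among 14 in C3, and 1 rise and 2 falls in C6, where 12.4% of all tested genes were called higher in C3, and 23.8% higher and 22.8% lower in C6. With the neighbourhood shift removed C6 had 3 rises and 5 falls. When 1 library was left out, C6 had 0 to 1 rises and 1 to 2 falls, and C3 had 2 to 3 rises. AURKA, a kinase that can shield MYC proteins from degradation, rose by 0.44 ± 0.079 in C3 (edgeR, adjusted p = 0.000777) and was at 0.16 ± 0.080 in C6 (edgeR, adjusted p = 0.114). The genes around it, AURKA itself counted, had a median of 0.44 in C3 and 0.42 in C6. Without this shift AURKA was at 0 and not called in C3, and at -0.255 in C6 (edgeR, adjusted p = 0.0194). SET, an inhibitor of the phosphatase PP2A, rose by 0.31 ± 0.058 in C3 (edgeR, adjusted p = 0.00106). CIP2A, another inhibitor of PP2A, fell by 0.55 in C6 (edgeR, adjusted p = 4.16e-05), and PPP2R5A, a PP2A subunit, was at 0.23 ± 0.075 there (edgeR, adjusted p = 0.0205), a call lost under upper-quartile scaling and without scramble replicate 2 or C6 replicate 1. HUWE1, a ubiquitin ligase, had libraries from 516 to 726 CPM with overlapping groups. Protein was not measured.

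The SIN3 corepressor that MXD proteins and MNT recruit had 1 gene called higher and 2 lower among 15 in C3 and 3 lower in C6, beside all-gene shares of 12.4% higher and 11.9% lower in C3 and 22.8% lower in C6. With the neighbourhood shift removed the 3 calls in C3 were lost, and the 2 lower were lost without scramble replicate 1, scramble replicate 2 or C3 replicate 1. HDAC1 and HDAC2 are the deacetylases in the list. HDAC1, given for comparison, was called in neither line, at 0.17 in C3 and 0.05 in C6 (edgeR, adjusted p = 0.0521 and 0.501). HDAC2 was at 0.22 in C3 and fell by 0.36 in C6 (edgeR, adjusted p = 0.0126 and 0.000199). The call of HDAC2 in C3 was lost without scramble replicate 2 or C3 replicate 2 and with the neighbourhood shift of 0.125 removed. ING1 fell by 0.47 in C6, where its neighbours had a median of -0.48. HDAC1, HDAC2 and ING1 were chosen for naming after their values were seen. RBBP4, a histone chaperone, was at -0.18 in C3 (edgeR, adjusted p = 0.0441), and lost the call under the replicate block (edgeR, adjusted p = 0.081), without its neighbourhood shift, and without any 1 of the scramble and C3 libraries. ING2 was at -0.61 in C3 (edgeR, adjusted p = 0.0323), where its neighbours had a median of -0.55 and removing it left -0.06. SUDS3 fell by 0.34 in C6 (edgeR, adjusted p = 0.00755), but not without scramble replicate 2 or C6 replicate 1. RBBP7 stayed between 285 and 321 CPM in all libraries.

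In the PRC1.6 complex of MGA, 3 genes rose and 1 fell of 11 in C3, and 5 rose and 1 fell in C6, beside all-gene shares of 12.4% higher and 11.9% lower in C3 and 23.8% and 22.8% in C6. The 3 became 1 without scramble replicate 1 and without C3 replicate 1. The gene that fell was TFDP1, the DP1 partner of E2F factors, at 210 and 206 CPM in scramble, 161 and 147 CPM in C3, and 92.7 and 90.2 CPM in C6. The pairs were separate, with -0.43 ± 0.062 in C3 (edgeR, adjusted p = 0.000113) and -1.19 ± 0.064 in C6 (edgeR, adjusted p = 1.95e-09), and its neighbours in C6 had a median of -0.47. RYBP rose by 0.33 in C3 and 0.44 in C6, the former call being lost without scramble replicate 1 or C3 replicate 1. RING1, a ubiquitin ligase of the complex, rose by 0.40 in C6. In C3 RING1 was at 0.23 (edgeR, adjusted p = 0.0487), and the call was lost under 12 of 15 alternatives, the replicate block among them (edgeR, adjusted p = 0.0783). CBX3, a heterochromatin protein, rose by 0.30 ± 0.065 in C6 (edgeR, adjusted p = 0.00168), with neighbours at 0.36. Of 11 germline genes that the complex silences 4 could be tested, and 1 was called lower in C6. This was TAF7L, at 0.817 and 0.447 CPM in scramble and 0 and 0.216 CPM in C6 (edgeR, adjusted p = 0.044). TAF7L passed the low-count filter only through its scramble libraries, so a lower level elsewhere was favoured by the selection. Its call was lost under 9 of the 14 alternatives that tested it, the replicate block among them (edgeR, adjusted p = 0.0628). DDX4, DAZL, MAEL, SLC25A31 and TEX101 were at 0 in all 6 libraries.

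The genes whose log2 CPM ran most like that of MYC over the 6 libraries were PSIP1, CBX2, TAF15, TSPAN5 and ADGRL2, with Pearson correlations of 0.9994, 0.9989, 0.9982, 0.9981 and 0.9974. Among 10433 genes of at least 5 CPM on average, 1181 had a correlation above 0.9, and the 6 points are 3 pairs of replicates. PSIP1, a chromatin reader, had means of 92.9, 117 and 64.6 CPM in scramble, C3 and C6. ADGRL2, an adhesion receptor, moved most widely of the 5, with 7.07, 17.2 and 1.57 CPM.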

How the data were processed

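Poly(A) RNA of 6 SW620 libraries was measured with a stranded kit and paired ends, per the labels' protocols. The authors deposited whole-number counts per gene that are not scaled between libraries. The submitters' processing notes name Trimmomatic 0.38, HISAT2 2.1.0, StringTie 2.1.3b, DESeq2 and build hg38. The way reads were assigned to genes and the strand setting were not given in the sources used here. Because StringTie estimates abundances, the deposited counts could be rounded sums of estimates, and they were tested as tallies.

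Libraries were grouped by title and fitted with edgeR 4.0.16 (quasi-likelihood, TMM, filterByExpr, robust) in R 4.3.3, all 6 libraries as 3 groups with 3 residual degrees of freedom. Benjamini-Hochberg adjustment ran over 13299 genes, and a gene is called when its adjusted p is under 0.05. Running medians took up to 51 genes in RefSeq order, the gene itself among them, and 13245 of the tested genes had a position. Medians of neighbours and neighbourhood shifts are these running medians. The steps were tested on simulated data. Alternatives were RLE and upper-quartile scaling, no filter and a filter of 1 CPM in 2 libraries, DESeq2 1.42.0, limma-voom (limma 3.58.1), a replicate block, each library left out, only the libraries compared, the knockdown libraries as 1 group, and removal of the neighbourhood shift.

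The members and the 14 gene lists were chosen with earlier results of these data known. Named were all members, DKC1, the paralogs MYCN, MYCL and MLXIPL, and from each list the 2 most abundant genes and up to 3 with the smallest p among those called in the mean of both lines. Genes outside this rule are said to be so. A few genes that the rule or the lists hold are not reported here. The 5 genes most like MYC were taken by Pearson correlation of log2 CPM with a prior count of 2. Of the 4 marker lists levels and sums are given, with the signs of change for the epithelial list.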

Additional observations from a re-analysis of the deposited data

Results flagged for a closer look

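The lines C3 and C6 differed from each other in 4 members, by edgeR's test of C6 against C3, which is also the test of whether their effects against the shared scramble libraries differ. The log2 difference was -0.68 for MYC, -0.95 for MXD4, 0.35 for MXD1 and 0.19 for MLX. MYC and MXD1 kept the call in every one of the alternatives, MXD4 lost it with the neighbourhood shift removed, and MLX lost it in 7 of 15.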

How the results depend on the processing

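Values are log2 fold changes or numbers of genes called. By edgeR the mean of both lines had 2 members higher and 0 lower (2 lower at an unadjusted p under 0.05), 9 activated genes higher and 9 lower, and 3 repressed genes higher and 1 lower. Under upper-quartile scaling MLXIP, TFRC and CTNNB1 in C3 became -0.003, -0.025 and -0.028 and MXI1 in C6 against C3 -0.009. In the mean of both lines 2 members and 2 repressed genes were then lower, and in C6 against C3 1 member was higher. The filter of 1 CPM gave 1 member and 2 repressed genes lower in the mean. DESeq2 gave 0 repressed genes lower in the mean and 1 member higher in C6 against C3. With the neighbourhood shift removed, C6 against scramble became 0.216 for MXD4, -0.255 for AURKA, 0.088 for ING2, -0.06 for CBX3, -0.121 for AIMP2, -0.024 for TBRG4 and 0.002 for ING1, and TBRG4 in C3 became -0.003. The same setting gave 0.327 for MXD4 in the mean and 1 member lower there. In C6 against C3 it gave -0.149 for MXI1, -0.08 for AIMP2 and -0.022 for TBRG4, with 1 member higher, 1 member lower and 2 activated genes higher. The cause of these changes was not tested.

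With the knockdown libraries as 1 group, so that the difference between the lines entered the spread, the mean of both lines had 80 genes called and MXD4 at 0.007. That fit called 0 members, 0 activated and 0 repressed genes higher, and 0 activated and 0 repressed genes lower. DKC1, the gene targeted, was at -1.557 there and was not called either (edgeR, adjusted p = 0.124).

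Leaving out each library in turn gave 1946 (without scramble replicate 2) to 3267 genes called in C3 and 2444 (without scramble replicate 2) to 4041 in the mean. Members lower numbered 0 to 1 in C3 and 0 to 2 in the mean, and members higher 1 to 2 in the mean and 1 to 2 in C6 against C3. Activated genes higher numbered 10 to 19 in C3, 5 to 9 in the mean and 2 to 4 in C6 against C3, and activated genes lower 5 to 6 in the mean. Repressed genes lower numbered 0 to 1 in C6, 0 to 2 in the mean and 1 to 2 in C6 against C3. Signs turned within -0.024 to 0.095 for MLXIP, -1.03 to 0.348 for MYCN, -0.013 to 0.037 for TFRC, -0.003 to 0.021 for CTNNB1, -0.29 to 0.064 for TERT and -0.086 to 0.027 for AIMP2 in C3. In C6 they turned within -0.173 to 0.035 for MLXIP, -0.073 to 0.011 for SET and -0.117 to 0.006 for RBBP4. In C6 against C3 the ranges were -0.078 to 0.105 for MXI1, -0.209 to 0.001 for MLXIP, -0.015 to 0.337 for MGA and -0.209 to 0.007 for SLC29A2. A group left with 1 library was assumed to vary like the others.

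Replicate numbers did not pair the libraries: differences between replicates correlated at -0.047, 0.064 and 0.025 between groups. With the replicate block, 2935 genes were called in C3, 5878 in C6, 4014 in the mean and 6243 in C6 against C3, and 1 member was higher in the last.

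With 2 libraries a group, and MXD3 and MYCN at few counts, small differences could not be told from the replicate spread.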
